A study of Mus musculus with 16 samples.

Results

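A set of 10 genes of the cell-cycle brake that acts through the retinoblastoma protein was followed in C2C12 cells, a mouse myoblast line that leaves the cell cycle and fuses into myotubes when serum is lowered. They are the CDK inhibitors *Cdkn1a* (p21), *Cdkn1b* (p27), *Cdkn1c* (p57), *Cdkn2a* (p16 and p19ARF) and *Cdkn2c* (p18), the D cyclins *Ccnd1* and *Ccnd3*, and the pocket proteins *Rb1*, *Rbl1* (p107) and *Rbl2* (p130). The genes were chosen by name, as the rows of both count tables whose Ensembl identifier belongs to one of these 10 symbols, out of 49585 genes in each table. Values in CPM (a gene's count as a share of its library, with TMM scaling, each table on its own) were read in all 16 libraries.

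RNA-seq of ribosomal RNA-depleted total RNA was done in a pair of experiments. The first compared WT cells with AMPK-KO cells, in which *Prkaa1* and *Prkaa2*, the genes of both catalytic subunits of the energy sensor AMPK, had been targeted by CRISPR, at d0 (myoblasts in 10% fetal bovine serum) and at d8 of differentiation in 2% equine serum, with 2 libraries per group. The other experiment set d0 cells of TET2-S97E clones, in which serine 97 of the DNA demethylase TET2 is replaced by the phosphate mimic glutamate, against cells of TET2-WT clones, with 2 clones per genotype and 2 libraries per clone. All TET2 clones, the controls included, lack AMPK and carry a FLAG-BirA tag and EGFP at the endogenous *Tet2* gene. Clones are single selected lines. The study shows methylation and RNA-seq tracks of a pair of independent AMPK-KO lines, so that AMPK-KO replicates may be separate lines, but no label ties a library to a line or says that replicates came from separate cultures, so p-values measure the spread between these libraries, which may be technical. A library of the AMPK experiment held 17883417 to 24663079 counts, and one of the TET2 experiment 19801909 to 37790358.

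CDK inhibitors of the CIP/KIP family (p21, p27, p57) bind cyclin-CDK complexes, and those of the INK4 family (p16, p18) bind CDK4 and CDK6 themselves. Active cyclin D-CDK4/6 phosphorylates the pocket proteins, which when unphosphorylated hold E2F factors and keep S-phase genes silent. In cultured muscle cells p21, cyclin D3 and pRB are known to accumulate as myoblasts withdraw from the cycle, while cyclin D1 depends on serum.

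All 10 members have 1 row in each table. On GRCm38, *Cdkn1a* (ENSMUSG00000023067.13) lies at chr17:29090976-29100727 on the plus strand, *Cdkn1b* (ENSMUSG00000003031.14) at chr6:134920401-134925513, plus, *Cdkn1c* (ENSMUSG00000037664.13) at chr7:143458339-143461050, minus, *Cdkn2a* (ENSMUSG00000044303.6) at chr4:89274471-89294653, minus, and *Cdkn2c* (ENSMUSG00000028551.14) at chr4:109660876-109667189, minus. *Ccnd1* (ENSMUSG00000070348.5) lies at chr7:144929931-144939925 on the minus strand and *Ccnd3* (ENSMUSG00000034165.16) at chr17:47505051-47599691, plus. *Rb1* (ENSMUSG00000022105.6) lies at chr14:73183673-73325822, minus, *Rbl1* (ENSMUSG00000027641.13) at chr2:157145893-157204534, minus, and *Rbl2* (ENSMUSG00000031666.15) at chr8:91070057-91123844, plus. Whether counting used strand is not stated, so reads of overlapping opposite-strand exons cannot be told apart from a member's own. Such exons cover 30.7% of the exon bases of *Cdkn1c* and 23.4% of those of *Ccnd1*, and from 4.11% to 11.8% per overlapping gene in *Ccnd3*, *Rb1*, *Cdkn1a* and *Rbl2*.

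Start-site windows of 300 bases (250 before to 50 after a RefSeq transcript start, GRCm38.p6) were found for 7 of the 10 members, 11 windows in all. The windows of 4 members that changed in WT cells between d0 and d8 are shown, *Cdkn1a* and *Ccnd3* for the genes that were higher at d8 and *Cdkn2c* and *Rbl1* for those that were lower. *Cdkn1a*, *Ccnd3* and *Cdkn2c* have 2 windows each, of which 1 is printed, chosen after the windows had been seen. Capitals mark the GC box GGGCGG, the CCAAT box, the E-box CAGCTG and the E2F-like letters TTTNNCGC, each searched on both strands, so that CCGCCC is a GC box read on the other strand.
*Cdkn1a*, chr17:29093519-29093818, plus strand: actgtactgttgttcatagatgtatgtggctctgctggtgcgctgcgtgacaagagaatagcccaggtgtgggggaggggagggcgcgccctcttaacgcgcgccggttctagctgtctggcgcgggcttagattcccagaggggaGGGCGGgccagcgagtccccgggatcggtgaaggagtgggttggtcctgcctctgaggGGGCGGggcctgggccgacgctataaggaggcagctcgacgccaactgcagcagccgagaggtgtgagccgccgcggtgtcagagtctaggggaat
*Ccnd3*, chr17:47593217-47593516, plus strand: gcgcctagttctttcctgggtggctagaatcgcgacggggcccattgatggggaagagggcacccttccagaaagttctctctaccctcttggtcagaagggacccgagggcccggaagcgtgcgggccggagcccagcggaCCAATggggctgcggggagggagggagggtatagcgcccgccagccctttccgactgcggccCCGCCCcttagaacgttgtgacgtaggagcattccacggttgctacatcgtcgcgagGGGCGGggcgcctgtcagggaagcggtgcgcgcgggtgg
*Cdkn2c*, chr4:109666707-109667006, minus strand: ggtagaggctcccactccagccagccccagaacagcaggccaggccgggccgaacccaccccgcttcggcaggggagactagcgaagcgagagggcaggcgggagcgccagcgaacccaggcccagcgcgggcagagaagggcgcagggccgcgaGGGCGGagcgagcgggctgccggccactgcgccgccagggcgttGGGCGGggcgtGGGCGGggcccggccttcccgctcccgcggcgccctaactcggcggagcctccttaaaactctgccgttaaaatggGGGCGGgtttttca
*Rbl1*, chr2:157204485-157204784, minus strand: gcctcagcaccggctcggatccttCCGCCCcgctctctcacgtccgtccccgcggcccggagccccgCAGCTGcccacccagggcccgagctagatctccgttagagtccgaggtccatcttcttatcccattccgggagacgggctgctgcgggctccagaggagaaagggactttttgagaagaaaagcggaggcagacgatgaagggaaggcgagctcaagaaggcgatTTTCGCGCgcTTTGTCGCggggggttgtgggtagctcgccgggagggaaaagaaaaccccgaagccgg

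The printed *Cdkn1a* window holds 2 GC boxes, at −104 and −46 (leftmost base, with the start site as 0), and the printed *Cdkn2c* window holds 4, at −95, −51, −40 and 36. The printed *Ccnd3* window holds a CCAAT box at −108 and GC boxes at −46 and 11. The windows that are not printed differ in these letters. That of *Cdkn1a* at chr17:29090729-29091028 has CAGCTG at 37 and no GC box, that of *Ccnd3* at chr17:47504801-47505100 has GC boxes at −152 and −18 and no CCAAT box, and that of *Cdkn2c* at chr4:109665323-109665622 has CCAAT at 7, the general E-box CANNTG at 34 and no GC box. Of the printed windows that of *Rbl1* is the one with TTTNNCGC, at −18 and −8, just before the start, and it also has CAGCTG at −183 and a GC box at −226. Both *Cdkn2a* windows, which are not printed, also hold TTTNNCGC, at −244 and at −99. Of 32851 mouse windows of this length, 35.7% hold GGGCGG, 37.4% CCAAT, 16.3% CAGCTG and 5.17% TTTNNCGC. The looser letters were added after the windows had been seen. The stricter E2F letters TTTCCCGC, in 1.07% of windows, occur among the members in a *Cdkn2a* window, and TTTGGCGC, in 0.514%, in none of the 11. CANNTG (72.3% of windows, the CAGCTG matches included) also occurs in the printed *Cdkn1a* window at −187 and −4, TTTGAA (17.9%) in the *Rbl2* window, and TATAAA (13.6%) in no member window. These are matches of letters and were not tested as sites.

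The edited genes were read first. *Prkaa1* was at 159 and 159 CPM in the WT and 79.7 and 78.0 in the AMPK-KO libraries at d0, and at 126 and 125 against 83.3 and 82.5 CPM at d8. Transcripts therefore remained in AMPK-KO cells, at a level below every WT library of the same day (log2 fold change −1.01, standard error (SE) 0.126, adjusted p = 0.0116 at d0, and −0.60, SE 0.126, adjusted p = 0.0419 at d8, quasi-likelihood (QL) test of edgeR with Benjamini-Hochberg adjustment). *Prkaa2* had, at d0, 1.69 and 1.79 CPM in WT against 0.209 and 0.421 in AMPK-KO cells, while the d8 values were 6.23 and 10.1 against 1.27 and 0.826 CPM. In the second experiment *Tet2* was at 34.4, 22.6, 58.4 and 56.2 CPM in the TET2-WT and at 12.9, 21.9, 7.89 and 22.1 CPM in the TET2-S97E libraries (log2 fold change −1.29, SE 0.381, adjusted p = 0.366 over clone sums). Gene counts do not show the edited bases. The myoblast markers *Myod1*, *Myf5*, *Des*, *Cdh15* and *Chrna1* were detected in all 16 libraries and summed to 1178 to 5094 CPM, with *Des* the most abundant. Of the markers of other cells, *Adgre1* and *Tyrobp* (leukocytes) and *Cidec* and *Lep* (adipocytes) were at 0 in every library, and the lists of 5 genes each summed to at most 7.86 CPM for leukocytes (*Cd68* the most abundant), 1.67 for adipocytes and 13.0 for endothelial cells (*Tek* the most abundant in that library). The Schwann and neural list summed at d0 to 130 and 231 CPM in WT against 12.3 and 10.3 in AMPK-KO cells, and to 98.1 and 66.3 against 2.77 and 3.84 CPM at d8, carried in WT cells by *Tubb3*, and its part in the comparisons of genotypes was not tested.

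Per length, in TPM (counts scaled by exon length and then by library; mean ± SD, n = 2), *Ccnd1* and *Cdkn1a* led the members in WT cells at d0, at 249 ± 8.05 and 243 ± 16.8, and did not differ beyond their spread. *Cdkn1b* (72.8 ± 12.9), *Cdkn2c* (62.7 ± 16.3) and *Ccnd3* (59.5 ± 1.19) followed, within each other's spread, and then *Rb1* (44.4 ± 2.72), *Rbl1* (37.4 ± 8.09) and *Rbl2* (33.1 ± 11.8). At d8 in WT cells *Cdkn1a* stood alone at 924 ± 111 TPM, *Ccnd3* was the next at 152 ± 5.21, and *Cdkn1b* and *Rb1* did not differ beyond their spread (75.7 ± 32.2 and 71.2 ± 0.807). *Ccnd1* had dropped to the sixth place by its mean, at 41.3 ± 30.3. Its spread overlapped those of *Cdkn1b*, *Rb1*, *Rbl2* (54.6 ± 1.21) and *Cdkn2c* (29.5 ± 2.13). In AMPK-KO cells *Cdkn1a* and *Ccnd1* also led at d0 (175 ± 17.1 and 166 ± 46.5 TPM), and at d8 *Cdkn1a* (669 ± 261) was followed by *Ccnd3* (64.1 ± 14.1) and *Cdkn1b* (60.4 ± 8.24), which overlapped. *Cdkn1c* was the ninth in every group, at most 4.72 ± 1.66 TPM, and *Cdkn2a* the last.

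**Figure D1:**
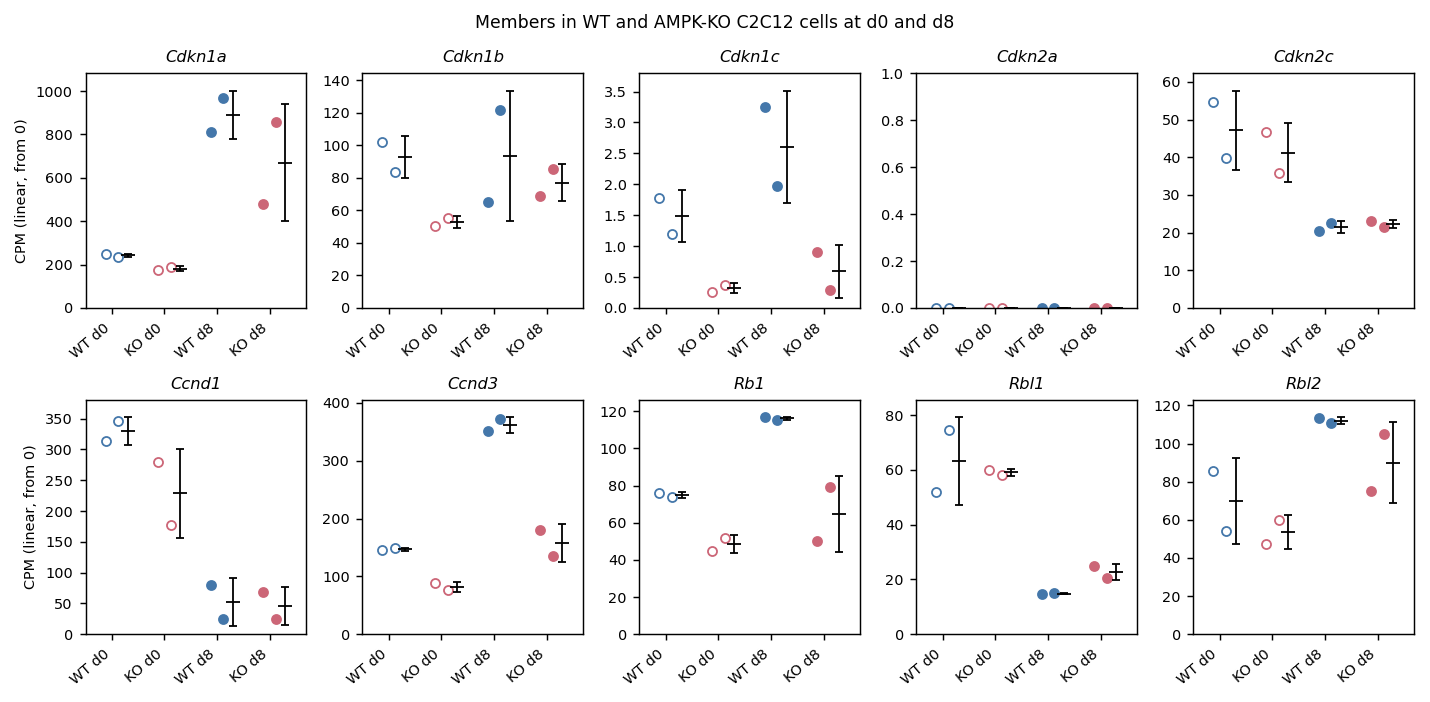
CPM (linear axis from 0) of each of the 10 members in the 8 WT and AMPK-KO libraries; open points are d0, filled points d8, blue WT, red AMPK-KO, and the black bars give the mean ± SD (n = 2). *Cdkn1a* and *Ccnd3* sit higher at d8 than at d0 in each genotype, *Ccnd1*, *Cdkn2c* and *Rbl1* sit lower, and *Cdkn2a* is at 0 throughout.

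The comparison of d8 with d0 asked how the members moved as the cells differentiated. In WT cells 5 of the 9 members tested passed the test, with *Cdkn1a* and *Ccnd3* higher at d8 and *Cdkn2c*, *Ccnd1* and *Rbl1* lower. In AMPK-KO cells 3 passed, *Cdkn1a* and *Ccnd3* higher and *Rbl1* lower. *Cdkn2c* and *Ccnd1* were called there too, lower at d8, by DESeq2 or with a replicate block. Over all 14329 genes tested 12.4% were called in WT (5.78% higher and 6.58% lower) and 9.76% in AMPK-KO cells (4.81% higher and 4.95% lower), by the edgeR QL test at an adjusted p under 0.05 in one model of the 4 groups. The median log2 fold change of the 9 members was 0.632 in WT and 0.544 in AMPK-KO cells, beside 0.013 and 0.021 over all genes. *Cdkn2a* did not enter the test. In bulk RNA, fewer cells in cycle and less RNA of a gene per cell cannot be told apart.

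*Cdkn1a*, whose product p21 inhibits cyclin-CDK2 complexes, was at 248 and 237 CPM in WT cells at d0 and at 812 and 970 CPM at d8. In AMPK-KO cells it was at 173 and 189 CPM at d0 and at 478 and 859 CPM at d8. The days did not overlap in either genotype, although the AMPK-KO libraries of d8 lay far apart from each other. The level rose 3.67-fold in WT cells (log2 fold change 1.88, SE 0.287, adjusted p = 0.0149, edgeR QL test) and 3.7-fold in AMPK-KO cells (1.89, SE 0.287, adjusted p = 0.0217). The genotypes' changes differed by 0.01 on the log2 scale (SE 0.392), a difference that ran from −0.50 to 0.41 over the alternative settings. Over the alternative settings the log2 fold change in AMPK-KO cells ran from 1.38 to 2.26.

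*Cdkn1b*, the gene of p27, went from 102 and 83.7 CPM at d0 to 65.2 and 122 at d8 in WT cells, and from 50.4 and 55.5 CPM at d0 to 69.0 and 85.4 at d8 in AMPK-KO cells. In WT cells the d8 libraries enclosed the d0 libraries (log2 fold change 0.01, SE 0.291), and in AMPK-KO cells both lay above d0 without passing the test (0.54, SE 0.292, adjusted p = 0.268). *Cdkn1c*, the imprinted gene of p57, was scarce, with 37 and 22 counts in WT cells at d0, 59 and 42 at d8, and in AMPK-KO cells 5 and 8 counts at d0 against 22 and 6 at d8. Its log2 fold change from d0 to d8 was 0.80 (SE 0.592, adjusted p = 0.401) in WT and 0.90 (SE 0.68, adjusted p = 0.425) in AMPK-KO cells, where it was −0.12 without AMPK-KO replicate 1 of d8. As a share of summed CIP/KIP TPM, *Cdkn1a* made up 76.5 ± 2.05% (SD, n = 2) in WT cells at d0 and 92.2 ± 1.91% at d8, and 81.2 ± 0.141% and 91.2 ± 2.19% in AMPK-KO cells.

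Of the INK4 genes, *Cdkn2c* (p18) went from 54.6 and 39.7 CPM at d0 to 20.3 and 22.7 at d8 in WT cells, and from 46.7 and 35.7 CPM at d0 to 23.0 and 21.4 at d8 in AMPK-KO cells. Every d8 library lay below every d0 library. It fell 2.19-fold in WT cells (log2 fold change −1.13, SE 0.224, adjusted p = 0.0248), and in AMPK-KO cells the level was 1.86-fold lower, just short of the threshold by edgeR (−0.89, SE 0.223, adjusted p = 0.0501) and past it by DESeq2 (adjusted p = 0.00928) and with a replicate block (−0.88, adjusted p = 0.0383).

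*Cdkn2a* had no count in any of the 16 libraries, among 375436134 counts in all, where 3 counts would be 0.0794 to 0.168 CPM. Its neighbours on chromosome 4, *Cdkn2b* (the INK4 gene of p15) and *Dmrta1*, were also at 0 in all 16 libraries. *Mtap*, on the other side of *Cdkn2a* and an enzyme of methionine salvage, was detected at 72.9 to 242 CPM. *Mtap* fell from d0 to d8 by 1.20 (adjusted p = 0.0146) in WT and by 1.22 (adjusted p = 0.0217) in AMPK-KO cells on the log2 scale, edgeR QL test. *Cdkn2c* and *Cdkn2d* (p19, an INK4 inhibitor not to be mistaken for p19ARF) thus held all of the INK4 TPM, with 49.1 ± 8.13% (SD, n = 2) from *Cdkn2c* in WT cells at d0 and 43.5 ± 2.69% at d8. In AMPK-KO cells the *Cdkn2c* share was 58.2 ± 7.28% and 61.2 ± 0.707%.

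Among the D cyclins, *Ccnd1* went from 313 and 346 CPM at d0 to 79.9 and 25.4 at d8 in WT cells, and from 280 and 178 CPM at d0 to 68.3 and 24.6 at d8 in AMPK-KO cells. The days did not overlap, and at d8 replicate 1 lay well above replicate 2 in each genotype. *Ccnd1* fell 6.27-fold in WT cells (log2 fold change −2.65, SE 0.646, adjusted p = 0.0417, edgeR QL test). In AMPK-KO cells it was 4.92-fold lower (−2.30, SE 0.637), with an adjusted p of 0.0658 from edgeR, 6.62e-04 from DESeq2 and 0.0269 with a replicate block (−2.42). Of the 5 calls in WT cells that of *Ccnd1* was lost most often, since leaving out any one of the 4 WT libraries or of the 2 AMPK-KO libraries of d0 took its adjusted p past the threshold, to 0.181 at most. Its log2 fold change in WT cells was −3.72 without replicate 1 of d8 and −2.07 without replicate 2 of d8. In AMPK-KO cells it was −3.21 without replicate 1 of d8 and −1.77 without replicate 2 of d8, in neither case with a call.

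*Ccnd3*, the D cyclin of differentiated muscle, went from 145 and 149 CPM in WT cells at d0 to 352 and 372 at d8, and from 88.2 and 76.2 CPM in AMPK-KO cells to 181 and 135. It rose 2.46-fold in WT (log2 fold change 1.30, SE 0.186, adjusted p = 0.0143, edgeR QL test) and 1.92-fold in AMPK-KO cells (0.94, SE 0.185, adjusted p = 0.0295). The AMPK-KO call was lost without either AMPK-KO library of d0, either WT library of d8 or AMPK-KO replicate 1 of d8. In AMPK-KO cells the log2 fold change was 0.72 without AMPK-KO replicate 1 of d8 and 1.11 without replicate 2 of d8. The AMPK-KO libraries of d8 fell on either side of the WT libraries of d0. Of the summed TPM of the 3 D cyclins, *Ccnd1* gave 67.7 ± 1.41% (SD, n = 2) in WT cells at d0 and 15.2 ± 10.0% at d8, while *Ccnd3* went from 16.2 ± 1.20% to 58.2 ± 7.99%. In AMPK-KO cells *Ccnd3* reached 33.9 ± 0.919% at d8, and *Ccnd2*, which was not among the 10, gave 48.6 ± 7.35%.

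Of the pocket protein genes *Rbl1* alone passed the test with the filter on low counts and no library left out. *Rbl1* (p107), which is itself a known E2F target, went from 52.0 and 74.7 CPM at d0 to 14.7 and 14.97 at d8 in WT cells, and from 60.0 and 58.3 CPM at d0 to 24.8 and 20.6 at d8 in AMPK-KO cells. The days were far apart in each genotype. It fell 4.27-fold in WT (log2 fold change −2.09, SE 0.217, adjusted p = 0.0143, edgeR QL test) and 2.61-fold in AMPK-KO cells (−1.38, SE 0.212, adjusted p = 0.0217). The difference between these changes, 0.71 (SE 0.295), had an unadjusted p of 0.0464 and an adjusted p of 0.969. *Rb1* was at 76.2 and 73.7 CPM in WT cells at d0 and at 117 and 116 at d8, against 45.0 and 52.1 and then 50.1 and 79.1 CPM in AMPK-KO cells. *Rb1* did not pass the test in WT (0.63, SE 0.221, adjusted p = 0.104) or in AMPK-KO cells (0.41, adjusted p = 0.269), though the WT libraries of the days did not overlap. In AMPK-KO cells its value was 0.71 without AMPK-KO replicate 1 of d8 and 0.02 without replicate 2 of d8. *Rbl2* (p130), the pocket protein of quiescent cells, was at 85.8 and 54.1 CPM in WT cells at d0 and at 113 and 111 at d8, and at 47.5 and 60.0 and then 75.0 and 105 CPM in AMPK-KO cells. Its log2 fold changes were 0.68 (adjusted p = 0.135) and 0.74 (adjusted p = 0.124). Without the filter *Rb1* and *Rbl2* were called in WT cells (edgeR QL adjusted p = 0.0436 and 0.0255). *Rbl2* was then called in AMPK-KO cells too (0.73, edgeR QL adjusted p = 0.017), and *Rb1* was not. *Rb1* was also called in WT cells without AMPK-KO replicate 2 of d8, where its log2 fold change was 0.63.

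In the sum of pocket-protein TPM, *Rbl1* went from 32.8 ± 8.91% (SD, n = 2) at d0 to 6.77 ± 0.148% at d8 in WT and from 39.5 ± 3.68% to 14.9 ± 5.09% in AMPK-KO cells. The share of *Rb1* went from 38.6 ± 0.141% to 52.8 ± 0.212% in WT and from 32.2 ± 0.990% to 40.2 ± 4.24% in AMPK-KO cells. Shares within a family rise together with the fall of another member, so they describe composition and were not tested.

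**Figure D2:**
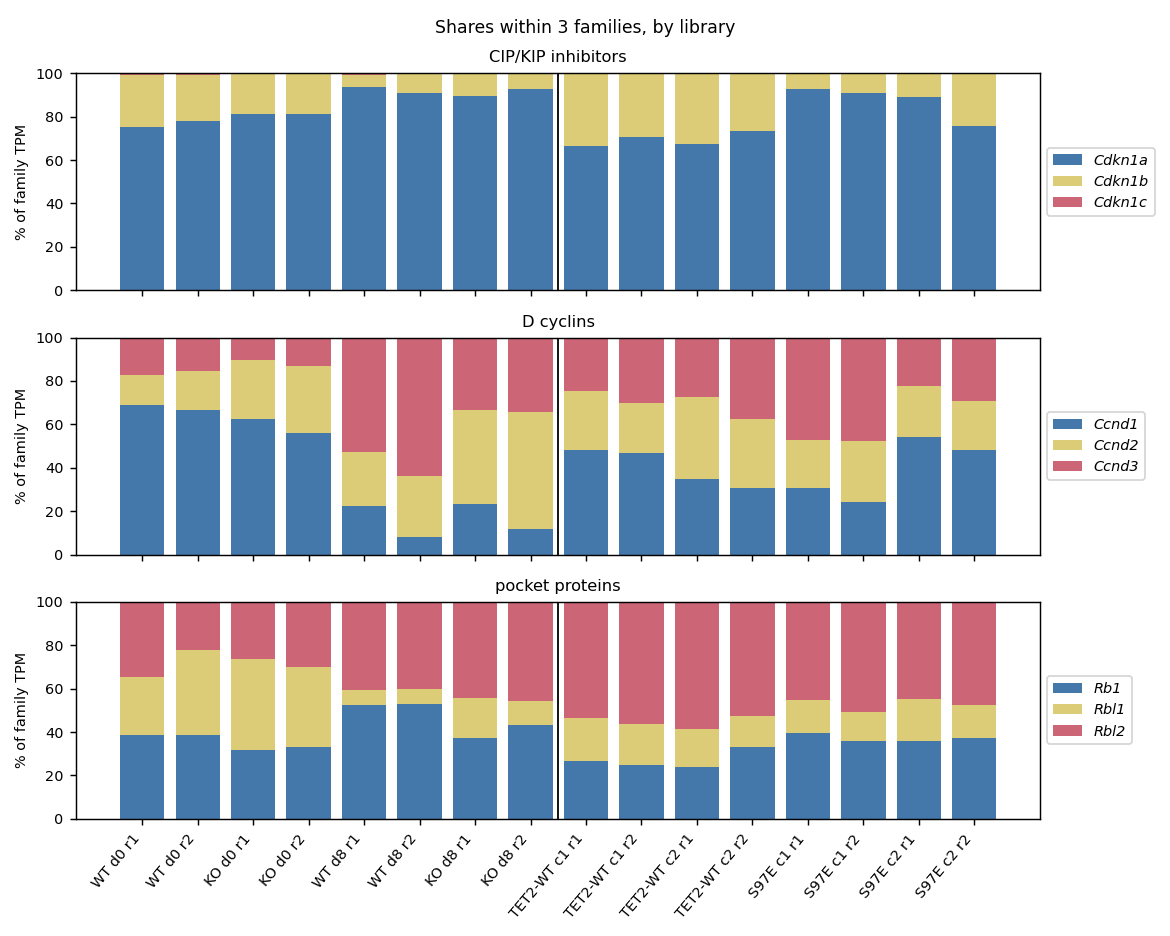
Share (%) of the summed TPM of each family taken by each gene, in every library, with the CIP/KIP inhibitors, the D cyclins and the pocket proteins in separate panels; the vertical line separates the WT and AMPK-KO table from the TET2 table. In the WT and AMPK-KO libraries the *Ccnd1* share of the D cyclins is large at d0 and small at d8, and the *Rbl1* share of the pocket proteins shrinks from d0 to d8 in each genotype. In the TET2 libraries, all of d0, the mean *Ccnd1* share of a clone runs from 27.5% (TET2-S97E clone 1) to 51.2% (TET2-S97E clone 2).

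The calls of d8 against d0 rested on few libraries. Without WT replicate 2 of d0, or without either WT library of d8, no member was called in WT cells. Without either AMPK-KO library of d0, none was called in AMPK-KO cells. In these fits a lone library is assumed to vary like the other groups. The signs of the members called held with any one library left out, with *Cdkn1a* between 1.72 and 1.97, *Ccnd3* between 1.24 and 1.33 and *Rbl1* between −2.35 and −1.79 on the log2 scale in WT cells, and adjusted p up to 0.116, 0.116 and 0.115 from the edgeR QL test. *Cdkn1b*, which was not called, turned in WT cells, to −0.11 without WT replicate 2 of d0 and −0.53 without WT replicate 2 of d8.

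AMPK-KO was compared with WT at each day to ask whether loss of AMPK altered the members. At d0 none of the 9 members tested passed the test, although all 9 log2 fold changes were below 0, with a median of −0.528 beside −0.001 over all genes. At d8 *Ccnd3* passed, lower in AMPK-KO cells, and 7 of 9 were below 0, with a median of −0.316 beside 0.039. Of all genes tested, 3.52% were called at d0 (2.83% lower) and 5.35% at d8 (3.98% lower). At d0, DESeq2 called 1 member and the edgeR QL test gave 4 members (*Ccnd3*, *Cdkn1c*, *Rb1* and *Cdkn1b*) an unadjusted p under 0.05, where of all 14329 genes DESeq2 called 1393 and 2995 had such a p.

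*Ccnd3* had the firmest difference. At d0 it was at 145 and 149 CPM in WT against 88.2 and 76.2 CPM in AMPK-KO cells, with no overlap (log2 fold change −0.84, SE 0.185, adjusted p = 0.0605, edgeR QL test; adjusted p = 0.00269 from DESeq2 and 0.047 with a replicate block). At d8 it was at 352 and 372 against 181 and 135 CPM, 2.29-fold lower in AMPK-KO cells (−1.20, SE 0.186, adjusted p = 0.0176). Without either WT library of d8, or without AMPK-KO replicate 2 of d8, its adjusted p from the edgeR QL test went to 0.093, 0.112 and 0.0516, with log2 fold changes of −1.22, −1.14 and −1.04. The AMPK-KO library of d8 with the lower *Ccnd3*, replicate 2, was the one with the higher summed CPM of muscle differentiation markers, 6399 against 1870, beside 5093 and 7105 in WT cells. The part of these markers in the result was not tested.

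*Cdkn1b* was lower in both AMPK-KO libraries than in both WT libraries at d0 without passing the test (−0.81, SE 0.293, adjusted p = 0.18), and the genotypes overlapped at d8 (−0.28, adjusted p = 0.616, and 0.26 without WT replicate 2 of d8). Without a filter on low counts *Cdkn1b* was called at d0 (−0.80, edgeR QL adjusted p = 0.00913). *Cdkn1a* was below WT at d0 in both AMPK-KO libraries (−0.42, SE 0.278, adjusted p = 0.446), and at d8 AMPK-KO replicate 2 lay between the WT libraries (−0.41, SE 0.278, adjusted p = 0.421). The d8 value of *Cdkn1a* ran from −0.93 to −0.03 over the alternative settings. *Cdkn1c* had the largest log2 fold changes of the members, −2.20 (SE 0.667, adjusted p = 0.128) at d0 and −2.10 (SE 0.624, adjusted p = 0.104) at d8, on the counts given above, none of which overlapped between the genotypes within a day. With a library left out the d8 value ran from −3.11 to −1.57, and without a filter on low counts *Cdkn1c* was called at both days (edgeR QL adjusted p = 0.0221 and 0.014). Of 7 neighbouring and imprinted genes of that stretch of chromosome 7, 6 were tested, and *H19*, a noncoding RNA of the adjoining imprinted domain that also holds *Igf2*, was higher in AMPK-KO cells at both days (1.68, adjusted p = 0.0218, and 1.57, adjusted p = 0.0223). *Cd81*, *Kcnq1ot1*, *Slc22a18*, *Nap1l4* and the growth factor gene *Igf2* did not pass at either day. From d0 to d8 *H19* rose by 2.13 in WT (adjusted p = 0.0143) and by 2.02 in AMPK-KO cells (adjusted p = 0.0209), and *Igf2* by 3.61 (adjusted p = 0.0397) and 5.68 (adjusted p = 0.0227), on the log2 scale.

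*Rb1* did not overlap between the genotypes at d0 or d8 either, but passed the test at neither day (−0.63, SE 0.222, adjusted p = 0.172, and −0.85, SE 0.222, adjusted p = 0.0779), with an adjusted p of 0.0152 from DESeq2 at d8. The d8 value was −0.54 (adjusted p = 0.256) without AMPK-KO replicate 1 of d8 and −1.25 with a call (adjusted p = 0.0272) without replicate 2, by the edgeR QL test. *Rbl1* overlapped at d0 (−0.10, adjusted p = 0.838) and was higher in both AMPK-KO libraries at d8 without passing (0.61, SE 0.211, adjusted p = 0.147). *Rbl2* overlapped at d0 (−0.38, adjusted p = 0.473), and at d8 both AMPK-KO libraries lay below WT (−0.32, adjusted p = 0.522). Its d0 value was −0.016 without WT replicate 1 of d0 and −0.67 without WT replicate 2. The d8 value of *Rbl2* was −0.07 without AMPK-KO replicate 1 of d8 and −0.61 without AMPK-KO replicate 2. *Cdkn2c* overlapped at both days (−0.19 and 0.05, adjusted p = 0.673 and 0.928). *Ccnd1* was lower in both AMPK-KO libraries at d0 (−0.53, SE 0.608, adjusted p = 0.678) and overlapped at d8, where its log2 fold change went from −1.08 to 0.89 with one library left out.

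The change from d0 to d8 was also compared between the genotypes. No member and none of the 14329 genes was called, 0%, by the edgeR QL test, against 729 genes at an unadjusted p under 0.05 and 27 higher and 33 lower by DESeq2. The median of the 9 members was 0.098, beside 0.041 over all genes. Of the members, *Rbl1* alone had an unadjusted p under 0.05. For *Ccnd3* the difference was −0.36 (SE 0.26), for *Cdkn1b* 0.53, for *Ccnd1* 0.35 (SE 0.861) and for *Rb1* −0.22. Over the alternative settings that of *Ccnd1* ran from −0.53 to 1.44 and that of *Rb1* from −0.61 to 0.11. Those of *Ccnd3* (−0.55 to −0.19) and *Cdkn1b* (0.19 to 1.09) kept their sign.

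**Figure D3:**
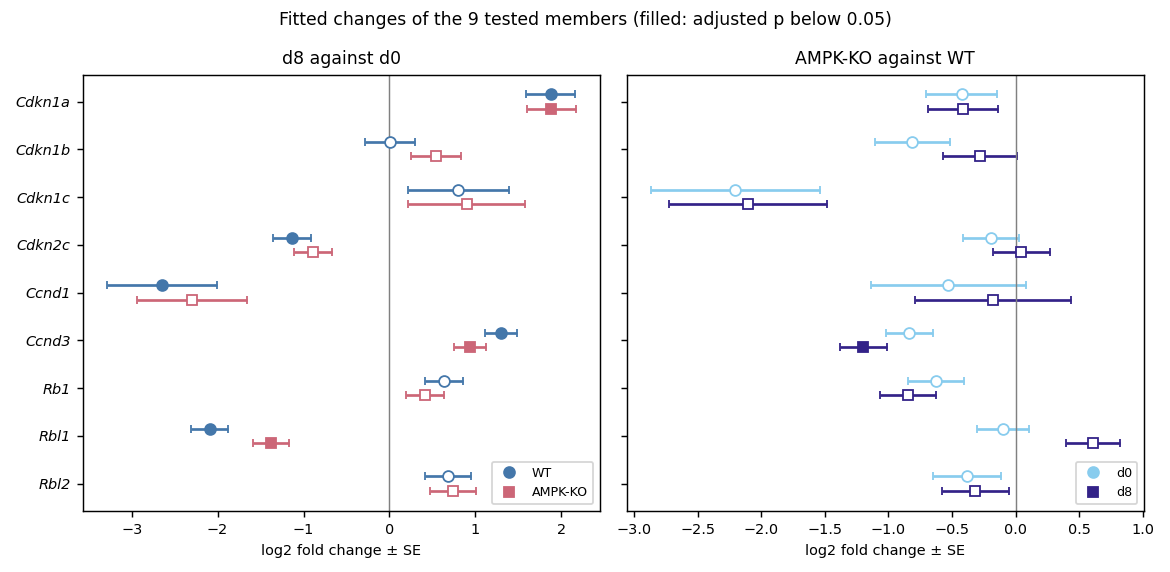
Log2 fold changes (points) ± SE (bars) of the 9 members tested; left, d8 against d0 in WT (blue) and AMPK-KO (red) cells; right, AMPK-KO against WT at d0 and d8. Filled points passed an adjusted p of 0.05; *Cdkn1a* and *Ccnd3* lie right of 0 and *Rbl1* and *Ccnd1* left of 0 on the left side, and *Ccnd3* at d8 is the one filled member on the right.

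TET2-S97E was compared with TET2-WT in AMPK-null myoblasts to ask what the phospho-mimic altered in cells without AMPK. With counts summed per clone, 2 clones against 2, no member and none of 15126 genes was called, 0%, by the edgeR QL test, against 1575 genes at an unadjusted p under 0.05 and 361 higher and 205 lower by DESeq2. The median log2 fold change of the 9 members was 0.215, beside −0.006 over all genes. In a fit of the 8 libraries that leaves clone out, and so treats libraries of a clone as independent, 3 members were called, *Cdkn1a*, *Rb1* and *Ccnd3*, all higher in TET2-S97E, against 6.98% of 13433 genes.

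*Cdkn1a* was at 142, 169, 149 and 234 CPM in the TET2-WT libraries (clone 1, then clone 2), at 755 and 684 CPM in TET2-S97E clone 1 and at 499 and 308 CPM in clone 2. Every TET2-S97E library lay above every TET2-WT library, and clone 1 lay above clone 2. Over clone sums the level was 3.05-fold higher (log2 fold change 1.61, SE 0.364, unadjusted p = 0.00566, adjusted p = 0.305 from the edgeR QL test and 0.00102 from DESeq2). The fit of 8 libraries gave 1.70 (SE 0.285, adjusted p = 0.0117), and limma-voom with a random effect of clone gave 1.66 (adjusted p = 0.0425). Without TET2-S97E clone 2 the log2 fold change was 2.00 and without TET2-S97E clone 1 it was 1.10, where the lone clone is assumed to vary like the TET2-WT clones.

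*Rb1* was at 32.0, 23.7, 24.9 and 38.6 CPM in TET2-WT and at 61.4, 43.9, 54.3 and 55.3 CPM in TET2-S97E libraries, without overlap. Its log2 fold change over clone sums was 0.81 (SE 0.19, adjusted p = 0.307; DESeq2 adjusted p = 0.0252; 0.85 and adjusted p = 0.0258 over 8 libraries; 0.87 and adjusted p = 0.112 from limma-voom with a random effect of clone). *Ccnd3* was at 81.3, 98.5, 100 and 124 CPM in TET2-WT and at 189, 184, 150 and 143 CPM in TET2-S97E libraries, also without overlap (0.67, SE 0.232, adjusted p = 0.423; DESeq2 adjusted p = 0.165; 0.72 and adjusted p = 0.0293 over 8 libraries; 0.73 and adjusted p = 0.0892 from limma-voom). *Cdkn1b* was at 88.5 to 106 CPM in TET2-WT and at 73.6 to 127 CPM in TET2-S97E libraries, and *Cdkn2c*, *Rbl1* and *Rbl2* also overlapped, with log2 fold changes of −0.02, 0.10, 0.21 and 0.17. *Cdkn1c* had 6, 21, 7 and 19 counts in TET2-WT and 11, 5, 2 and 4 in TET2-S97E libraries (−1.16, SE 0.7, adjusted p = 0.661). That value was −1.80 without replicate 1 of TET2-S97E clone 1 and −0.64 without its replicate 2, and −2.02 and −0.62 without TET2-S97E clones 1 and 2.

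*Ccnd1* set the TET2-S97E clones apart. It was at 85.0, 82.0, 68.4 and 53.9 CPM in TET2-WT, at 65.6 and 50.2 CPM in TET2-S97E clone 1 and at 196 and 127 CPM in TET2-S97E clone 2, so that clone 2 lay above all other libraries, while of clone 1 one library lay among the TET2-WT libraries and the other below them. Clone 2 was 2.79-fold higher than clone 1 (log2 fold change 1.48, SE 0.238, adjusted p = 0.0078, edgeR QL test in a model of the 4 clones). It was the 1 member called of 9, where 6.17% of 14459 genes were called (3.35% higher in clone 2). The median of the 9 members was 0.067, beside 0.032 over all genes. *Cdkn1a* was lower in clone 2 without passing (−0.83, SE 0.273, adjusted p = 0.118; DESeq2 adjusted p = 0.0197). Between the TET2-WT clones no member was called, where 0.858% of genes were, and the median was 0.124 beside −0.003 (*Ccnd1* −0.45, adjusted p = 0.301, and *Cdkn1a* 0.30). Over all clones, the genotype difference of *Ccnd1* was 0.52 (SE 0.477, adjusted p = 0.79), and its sign rested on one clone, with 1.09 without TET2-S97E clone 1 and −0.35 without TET2-S97E clone 2.

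**Figure D4:**
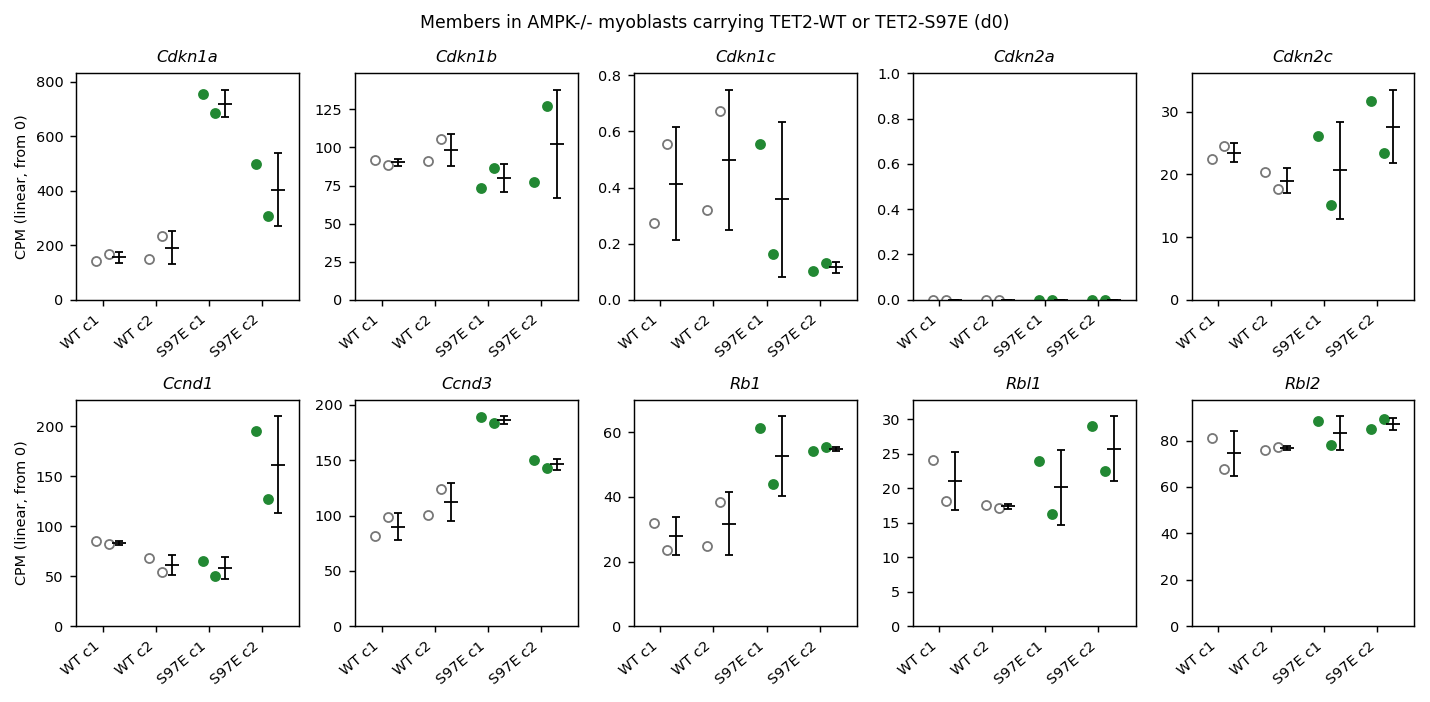
CPM (linear axis from 0) of each of the 10 members in the 8 TET2 libraries by clone; grey open points are TET2-WT, green filled points TET2-S97E, and the black bars give the mean ± SD over the 2 libraries of a clone. *Cdkn1a*, *Rb1* and *Ccnd3* lie higher in all 4 TET2-S97E libraries, and *Ccnd1* is high in TET2-S97E clone 2.

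The partners and targets of these genes were read from lists, whose counts stand beside the shares of all genes called: from d0 to d8, 5.78% higher and 6.58% lower in WT and 4.81% higher and 4.95% lower in AMPK-KO cells, and between the genotypes 3.52% at d0 and 5.35% at d8. The Rb pathway partners were CDKs, other INK4 genes, cyclins D2, E and A and the p27 ligase subunits, of which 11 were tested. From d0 to d8, 9 were called lower in WT cells and 9 in AMPK-KO cells, with medians of −1.161 and −1.428. *Skp2* and *Cks1b*, the subunits that mark p27 for degradation, fell by 2.54 (adjusted p = 0.0143) and 2.82 (adjusted p = 0.0146) in WT cells on the log2 scale. *Cdk6*, a kinase partner of the D cyclins, fell by 1.43 (adjusted p = 0.0215) in AMPK-KO cells, edgeR QL test. AMPK-KO cells at d8 had more *Cdk4*, the main kinase partner of the D cyclins, than WT (0.86, adjusted p = 0.042) and less *Cdkn2d* (−0.99, adjusted p = 0.0363), the 2 of the 11 called there, and at d0 none was called.

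Of the 16 E2F, DP and DREAM subunits, the factors that pocket proteins bind, 7 were called lower at d8 in WT cells and 5 in AMPK-KO cells. None was called higher, though 4 of 16 log2 fold changes were above 0 in each genotype (medians −0.356 and −0.728). *Mybl2*, the B-Myb subunit, had log2 fold changes of −3.67 in WT (edgeR QL adjusted p = 0.0149) and −3.398 in AMPK-KO cells (0.0223), and *E2f1* of −0.89 (0.018) and −0.85 (0.0263). Of the 16 S-phase targets of E2F, 15 were called lower at d8 in WT (median −2.384) and 14 in AMPK-KO cells (median −2.041). Among them was *Mcm2* of the replicative helicase, which fell by 2.38 (adjusted p = 0.0143) and 2.20 (adjusted p = 0.0179, edgeR QL test). *Cdt1*, a licensing factor, was the 1 target higher in AMPK-KO than in WT cells at d8 (2.09, adjusted p = 0.0471), where 15 of the 16 fold changes were above 0. All 10 mitosis genes fell from d0 to d8 in each genotype, with medians of −3.572 and −2.819.

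Of the 14 genes of p53 and its targets other than *Cdkn1a*, *Gadd45a* was called higher at d8 in WT cells (2.61, adjusted p = 0.0255, edgeR QL test). *Trp53* and *Bax* were called lower there (−1.08 and −0.72). In AMPK-KO cells 2 were called higher and 3 lower, and the medians were −0.041 in WT and 0.338 in AMPK-KO cells. *Plk2* was the 1 of them called at d0, lower in AMPK-KO cells (−1.36, adjusted p = 0.037). Of the 11 genes of the serum response and cyclin D1 inducers, none was called between d0 and d8, and *Jun* was higher in AMPK-KO cells at d8 (1.75, adjusted p = 0.0195). *Jun* was also lower and *Ccn1* and *Ccn2* higher in TET2-S97E clone 2 than in clone 1 (−1.66, 1.93 and 3.78, adjusted p = 0.00129, 0.0302 and 0.00243), the clone with more *Ccnd1*. Of the 9 muscle differentiation markers, 5 were called higher at d8 in WT and 7 in AMPK-KO cells, with medians of 4.389 and 7.735. *Myog*, *Myod1* and *Mymk*, regulators of muscle identity and fusion, were lower at d0 in AMPK-KO cells (−5.36, −3.29 and −5.64, adjusted p = 0.0116, 0.0147 and 0.0331, edgeR QL test). The median of the 9 between the genotypes was −5.357 at d0 and −0.836 at d8. At d8 none of the 9 was called between the genotypes, with 8 below 0. Of the 8 reserve cell and quiescence markers, *Pax7* and *Cd34* were lower in AMPK-KO cells at both days, and *Spry1* was higher at d0 (2.41, adjusted p = 0.00871).

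In the TET2 comparison over clone sums no gene of any of these lists was called. In the fit of 8 libraries, where 6.98% of genes were called, 7 of 9 muscle differentiation markers, 4 of 16 S-phase targets, 3 of 16 E2F and DREAM subunits, 2 of 14 p53 genes, 1 of 11 Rb pathway partners (*Ccne1*) and 1 of 10 mitosis genes (*Mki67*) were called higher, 2 of 11 serum response genes lower, and 1 of 8 reserve cell markers each way. With limma-voom *Myog* (adjusted p = 0.0383) and *Mki67* (adjusted p = 0.0387) were the list genes called. The median was 0.999 over the 10 mitosis genes, all of them above 0, 0.701 over the 16 S-phase targets, 3.685 over the 9 muscle differentiation markers and 0.366 over the 14 p53 genes, beside −0.006 over all genes. Clones of a genotype also differed in these lists. Between TET2-WT clones (clone 2 against clone 1) the median was −1.482 over the mitosis genes, with 10 of 10 below 0 and 4 called lower, −0.552 over the S-phase targets and 2.544 over the muscle markers, with 9 of 9 above 0 and 1 called higher. Between TET2-S97E clones these medians were 0.706, 0.268 and −1.589, with 3 muscle markers called lower in clone 2 and no mitosis gene called. Of all genes, 0.858% were called between TET2-WT clones and 6.17% between TET2-S97E clones. Fold changes above 0 of *Cdkn1a* and of the mitosis genes therefore stood side by side in TET2-S97E clones, and neither passed the test over clone sums. *Mki67*, a marker of cycling cells, had a log2 fold change of 1.68 (SE 0.321, adjusted p = 0.277 from the edgeR QL test, 3.48e-04 from DESeq2).

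Library by library, the mitosis and muscle lists moved beside *Cdkn1a* in different ways. The summed CPM of the muscle differentiation markers was 1354 and 1962 in WT at d0, 5093 and 7105 in WT at d8, 907 and 1163 in AMPK-KO at d0, and 1870 and 6399 in AMPK-KO at d8. AMPK-KO replicate 1 of d8 stood apart from replicate 2, low in muscle markers, low in *Cdkn1a* and higher in mitosis genes, at 345 CPM against 150. The mitosis sum was 1079 and 2119 CPM in WT at d0, 145 and 144 in WT at d8, and 1629 and 1712 in AMPK-KO at d0. In the TET2 table the muscle sum was 861, 1122, 907 and 1225 CPM in TET2-WT, 4930 and 2945 in TET2-S97E clone 1 and 1738 and 874 in clone 2, and the mitosis sum was 312, 304, 129 and 135 CPM in TET2-WT, 457 and 261 in clone 1 and 651 and 509 in clone 2. The clone with the most *Cdkn1a* was therefore the one with the most muscle transcripts, and *Cdkn1a* of the other TET2-S97E clone exceeded TET2-WT with a muscle sum that overlapped it in 1 of 2 libraries. The part of these markers in the results was not tested.

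**Figure D5:**
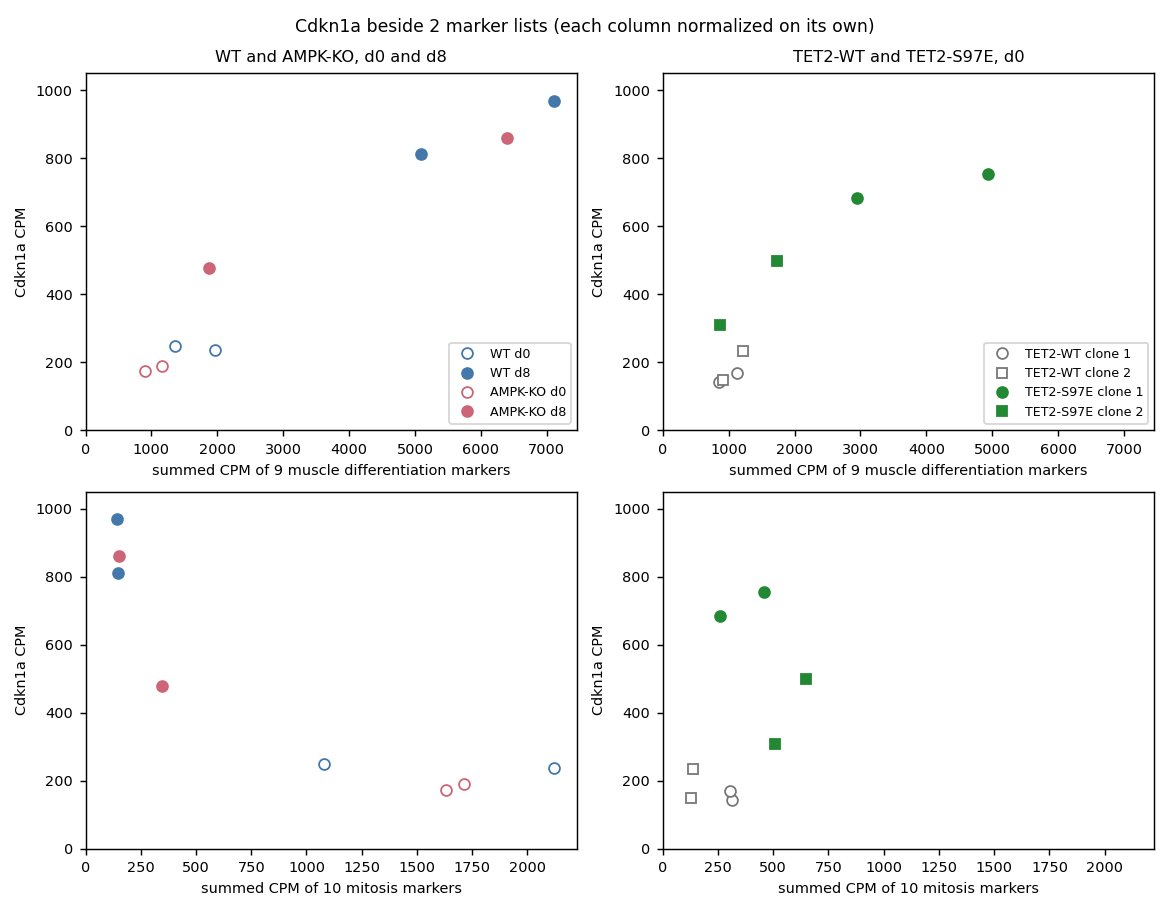
*Cdkn1a* (CPM, vertical axis) against the summed CPM of the muscle differentiation markers (upper row) and of the mitosis genes (lower row) in the WT and AMPK-KO table (left) and the TET2 table (right), one point per library; circles and squares in the TET2 table are clones 1 and 2. In the first table the d8 libraries combine higher *Cdkn1a* with lower mitosis sums than d0 libraries. TET2-S97E libraries, of d0, with 308 to 755 CPM of *Cdkn1a* have mitosis sums of 261 to 651 CPM. AMPK-KO replicate 1 of d8 has 478 and 345 CPM, but the tables were normalized separately, so these levels cannot be set against each other.

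The genes whose pattern over the 8 WT and AMPK-KO libraries was most like that of each member were named by the root mean square (RMS) difference of centred log2(CPM + 1), among 9507 genes with a mean of at least 10 CPM. They describe these libraries, and the likeness was not tested. For *Rbl1* they were *Chek2* (RMS difference 0.107), *G2e3* (0.128) and *Mcm7* (0.159), and for *Ccnd1* they were *Plaur* (0.336), *Foxm1* (0.385) and *Kntc1* (0.399), which were much less alike. *Cdkn1a* was nearest to *Aamdc* (0.165), *Calcoco1* (0.208) and *Hspb2* (0.22), and *Ccnd3* to *Tmbim1* (0.221), *Fosl2* (0.253) and *Mxd1* (0.254). *Cdkn2c* was nearest to *Mgst3* (0.125), *Gxylt1* (0.135) and *E2f1* (0.143). *Rb1* was nearest to *Setd7* (0.11), *Rbl2* to *Ankra2* (0.106), *Cdkn1b* to *Baz2b* (0.181) and *Cdkn1c* to *Smad1* (0.165).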

How the data were processed

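Libraries were made from total RNA after removal of ribosomal RNA and read from both ends. The authors trimmed reads (Trim Galore 0.4.5), aligned them to GRCm38 with STAR 2.5.3a (two-pass) and counted genes of GENCODE M12 with featureCounts 1.5.3. They deposited raw counts per gene, 1 table per experiment, and their DESeq2 tests were not used. Strand and multimapper settings are not given in the sources used here. Of 49585 identifiers, 49326 were found in GENCODE M21, which gave symbols, coordinates and exon lengths. All 16 count columns were used.

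Counts were tested in R 4.3.3 with edgeR 4.0.16 (TMM, filterByExpr, glmQLFit, glmQLFTest, Benjamini-Hochberg adjustment over all genes tested, threshold 0.05). One model of 4 groups held the 8 WT and AMPK-KO libraries, with 4 residual degrees of freedom. The TET2 genotypes were compared on counts summed per clone, with 2 residual degrees of freedom, and clones of a genotype in a model of 4 clones. An exact permutation test of 2 against 2 cannot give a two-sided p under 0.33. TPM used merged exon lengths. The fits were tested on simulated data beforehand. Replicate libraries were not copies of each other (chi-square 29.4 to 107 per degree of freedom).

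The alternatives were DESeq2 1.42.0 (test and size factors), filters on low counts, only the libraries of a day, a replicate block, each library or clone left out, the 8 TET2 libraries without clone, and limma-voom 3.58.1 with clone as a random effect. The members and gene lists were chosen with earlier results of these data known. The text names all members, the edited genes, at most 3 genes of each list per comparison with the lowest p, the genes neighbouring *Cdkn2a* and *Cdkn1c*, and the 3 genes nearest to each member in pattern. Start-site windows were taken from RefSeq.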

Additional observations from a re-analysis of the deposited data

How the results depend on the processing

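Of 1035 recomputed log2 fold changes of members, 982 kept their direction, and the 53 that turned were called at neither setting. Calls of members were lost 31 times with a library or clone left out and under no other setting, and gained 8 and 30 times. For AMPK-KO against WT at d0, the 505 genes called became 1393 with DESeq2, 2026 without a filter, 204 with at least 10 counts, 335 with the libraries of that day and 17 to 613 with a library left out, and the 0 members became 1 (DESeq2), 3 (no filter), 1 (replicate block) and 0 to 1 with a library left out. At d8, 766 genes became 1656 (DESeq2), 2503 (no filter), 277 (at least 10 counts) and 107 to 902, and 1 member became 2 (DESeq2), 3 (no filter) and 0 to 1. For d8 against d0, 1771 genes in WT became 2762 (DESeq2), 3293 (no filter) and 0 to 2260, with members at 5 (DESeq2), 7 (no filter) and 0 to 6 with a library left out, and 1398 in AMPK-KO became 2532 (DESeq2), 3039 (no filter) and 0 to 1737, with members at 5 (DESeq2), 6 (no filter), 5 (replicate block) and 0 to 4. The difference of these changes had 60 genes with DESeq2, 449 without a filter and 0 to 6 with a library left out.

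For TET2-S97E against TET2-WT, 0 genes became 566 (DESeq2), 113 (no filter), 938 (8 libraries), 858 (8 libraries with a replicate block), 166 (limma-voom), 124 (without TET2-S97E clone 1) and 184 (without TET2-S97E clone 2), and 0 members became 2 (DESeq2), 3 (8 libraries, with or without the block), 1 (limma-voom) and 1 (without TET2-S97E clone 2). With a clone left out the spread comes from one genotype alone. Between TET2-S97E clones 892 genes became 1383 (DESeq2), 1680 (no filter), 1540 (replicate block) and 472 to 1014, with 2 members (DESeq2 or no filter) and 1 to 2 with a library left out. Between TET2-WT clones 124 genes became 894 (DESeq2), 1627 (no filter), 677 (replicate block) and 0 to 313. Same-numbered libraries correlated in their deviations at 0.119 to 0.324 (WT and AMPK-KO) and −0.021 to 0.506 (TET2 clones). With 2 numbers per comparison, and no label saying what a number marks, the pairing is not established, and the replicate block moved no other count by over 1.5 times. Apart from fewer libraries and genes tested, the cause of these shifts was not tested. Depth limits *Cdkn1c*, with 2 to 59 counts in a library, and *Cdkn2a*, which had none.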
